A study of Mus musculus with 2 samples.

Results

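Exonic accessible sites outside promoters were the DNase-seq peaks of mouse frontal cortex that were found in both libraries and had their midpoint in an exon of a protein-coding gene. The midpoint also had to lie more than 1 kb from every annotated transcription start site (TSS) of any gene type. There were 1102 such sites among 40822 shared peaks on the autosomes, and they made up 5.35% (95% Wilson interval 5.05 to 5.67%) of the shared sites outside promoters. The other shared peaks comprised 9868 intronic sites, 9627 intergenic sites and 20225 promoter sites. All intervals given here cover counting error only.

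The tissue was frontal cortex of male B6CASTF1/J mice, the first-generation cross of C57BL/6J and CAST, collected at 10 days of age. The samples form 1 group with 2 biological replicates from separate biosamples that carry the same donor entry. The labels mention 3 males per sample but not whether their tissue was pooled, so the spread between the libraries may be partly technical. In DNase-seq the enzyme DNase I cuts accessible chromatin in isolated nuclei, and the strength of a site is the authors' cleavage density, their own depth-normalised signal per peak. Since the nuclei were assayed in bulk, access in fewer cells and less access per cell cannot be told apart. Reads of this cross were set against the C57BL/6J reference, which may favour that allele, and this was not tested.

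Exons carry the amino acid code or untranslated message, yet the same DNA can be bound by transcription factors, and exons of one gene are known to serve as enhancers of that gene or of a neighbour. A protected stretch inside an accessible site, a footprint, marks bases that were cut less than their surroundings, as happens where a protein sits on the DNA. CTCF, an architectural zinc finger protein that anchors chromatin loops, leaves some of the clearest footprints. CpG islands are stretches that have kept many CpG dinucleotides, usually at promoters, and they can extend into the exons of a gene.

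The 6 sequences that follow are the strongest exonic sites with a CTCF match wholly inside a footprint found in both libraries, and are shown because CTCF was the pattern most often found in a footprint among those with more than 10 matches. Capitals mark the match, and each sequence is given 5′ to 3′ on the strand of the match, from the GRCm38 (mm10) RefSeq genome sequence. The positions are chr14:20661152-20661181 on the minus strand for Synpo2l, chr2:18027534-18027563 on the plus strand for A930004D18Rik and chr6:51858058-51858087 on the minus strand for Skap2. They are chr8:84815721-84815750 on the minus strand for Dand5, chr17:28226263-28226292 on the plus strand for Def6 and chr11:75573544-75573573 on the minus strand for Slc43a2.
Synpo2l, coding: tcatgcagCCACTAGGGGGCAggagttaca
A930004D18Rik, 5′ UTR: tccctggcaCCTGCAGGGGGCGctggtgcc
Skap2, 3′ UTR: ctaagtggCCAGCAGATGGCAgcagcttgt
Dand5, 3′ UTR: gcttttagCCACTAGGTGGCAccgcgtccc
Def6, coding: gcggcagaaCCGGCAGAGGGCAgacgagga
Slc43a2, 3′ UTR: tgagtctgCCAGCAGGGGGCActgtgatca

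The next 6 show the footprint nearest to the midpoint in the strongest coding and 3′ UTR sites, with the footprint in capitals and the strand of the gene. Only footprints found in both libraries and of at most 30 bases were considered. The coding stretches lie at chr9:20878272-20878301 (minus strand, Angptl6), chr5:109557554-109557583 (minus, Crlf2) and chr3:61363829-61363858 (minus, B430305J03Rik). The 3′ UTR stretches lie at chr15:99735843-99735872 (minus, Cers5), chr13:58177637-58177666 (minus, Ubqln1) and chr9:123462019-123462048 (plus, Lars2).
Angptl6, coding: ccTGGGCCAGCTGCGCGCGCAATTGCAgca
Crlf2, coding: gacggTGGAGGTCACGTGGGGCTCGggccc
B430305J03Rik, coding: tcccaactcATTGGCCCCAGGatgtgagtc
Cers5, 3′ UTR: ctcagctccagGACTTGAAaattgttcttt
Ubqln1, 3′ UTR: atgcatcaaaCACTTGGCAtttattgtaat
Lars2, 3′ UTR: atgtcggcTCTTCCTATCATTGtgaagcag

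Of the patterns searched, the Angptl6 footprint held the E-box CAGCTG, the Crlf2 footprint the E-box CACGTG and the Ubqln1 footprint the nuclear factor I short pattern TTGGCA. Within its CTCF match the Skap2 sequence also holds the E-box CAGATG. The footprints of B430305J03Rik, Cers5 and Lars2 held none of the 18 patterns.

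The last set shows 30 bases at the midpoint of coding sites rich in CpG, with each CpG in capitals, because 39.1% of coding sites but 4.72% of 3′ UTR sites were rich in CpG. The stretches lie at chr9:20878293-20878322 (minus strand, Angptl6), chr9:66511804-66511833 (minus strand, Fbxl22) and chr7:127254238-127254267 (plus strand, Zfp771). They hold 2, 5 and 6 CpG dinucleotides in that order.
Angptl6, coding: cagtctcaccctgaacaCGCGcctgggcca
Fbxl22, coding: acttctgcCGcaaCGtgagCGcCGcCGgcc
Zfp771, coding: gccacCGaCGcaCGcacaCGggCGagCGcc

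Replicate 1 had 50261 listed peaks and replicate 2 had 54759, and all densities were whole multiples of a step per library that gave replicate 2 a relative depth of 1.65. Absolute depth is unknown. The tissue label was checked on promoters open in both libraries. They included 8 of 8 forebrain and neuronal genes, among them Emx2, Neurod2 and Tbr1, and 4 of 5 glial genes, with Slc1a3 the exception. The promoters of 1 of 3 microglial genes (C1qc), 1 of 3 endothelial genes (Flt1), 0 of 3 hindbrain genes, 1 of 3 liver genes (Apob) and 0 of 2 blood genes were open.

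Coding sequence held the most exonic sites, and within it last exons held more sites per length than inner exons. Of the 1102 sites, 534 (48.5%, 45.5 to 51.4%) lay in coding sequence, 381 (34.6%, 31.8 to 37.4%) in 3′ UTRs, 30 (2.72%, 1.91 to 3.86%) in 5′ UTRs and 157 (14.2%, 12.3 to 16.4%) in other exons. Among the other exons, 117 sites lay in transcripts of the retained intron type, 34 in processed transcripts and 6 in transcripts subject to nonsense-mediated decay. Of the exon DNA that met the same distance rule, coding sequence made up 36.4%, 3′ UTRs 44.0%, 5′ UTRs 0.936% and other exons 18.7%. The coding sites divided into 259 in inner exons and 275 in last exons, which include the 40 in transcripts of 1 exon. Inner exons here are all exons other than last exons, so first exons are among them. Coding sequence of last exons was only 9.98% of the exon DNA. Last exons of any kind held 662 sites (60.1%, 57.2 to 62.9%) and made up 54.1% of the exon DNA. They held 18.6 sites per Mb, against 14.6 in all exons that were not last exons.

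Per length of DNA, exonic sites numbered 16.8 per Mb (exact Poisson interval 15.8 to 17.8), intronic sites 10.1 per Mb (9.87 to 10.3) and intergenic sites 8.02 per Mb (7.87 to 8.19). The intervals did not overlap. Coding sequence of last exons held 41.9 sites per Mb (37.1 to 47.1), against 14.9 (13.1 to 16.8) in inner coding exons, 13.2 (11.9 to 14.6) in 3′ UTRs and 12.8 (10.9 to 14.9) in other exons. The 5′ UTRs held 48.7 per Mb, with a wide interval of 32.9 to 69.6 since they had 30 sites. By chromosome the exonic sites ranged over 13.7 to 22.3 per Mb.

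**Figure D1:**
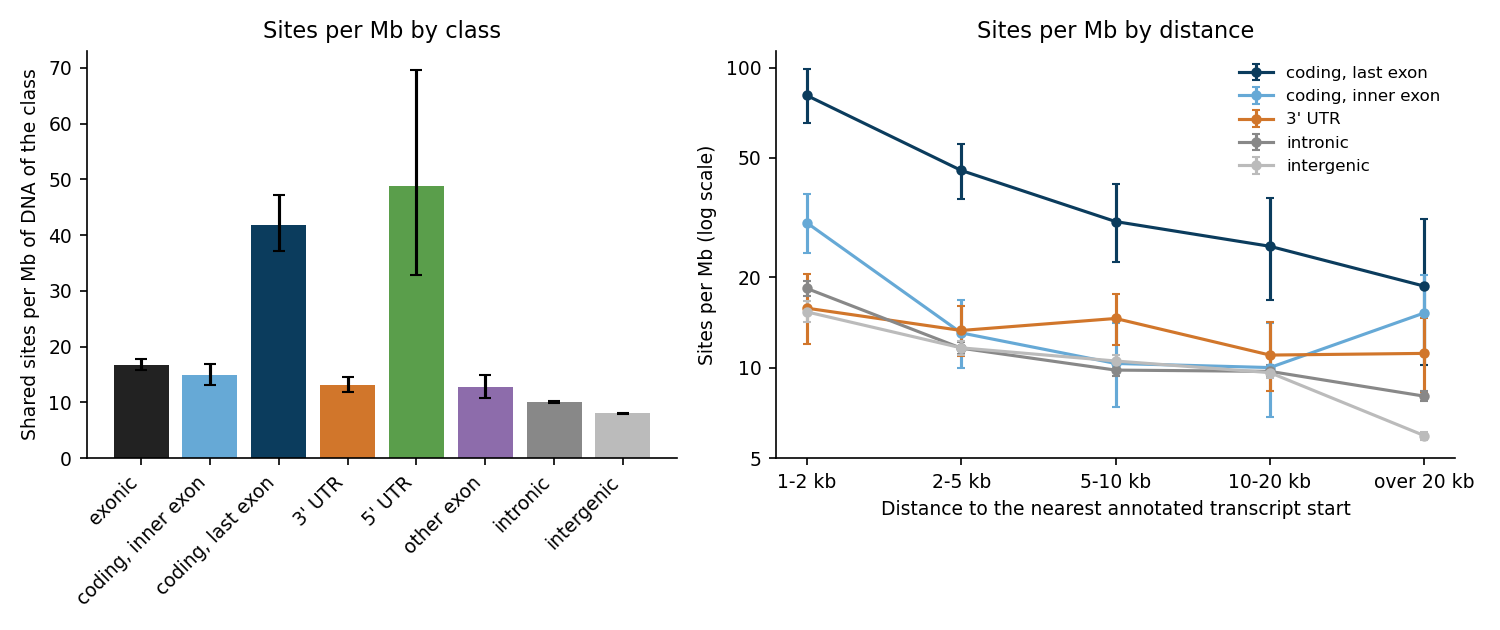
Left, shared sites per Mb of DNA of each class, with exact Poisson intervals as error bars; right, the same by distance to the nearest annotated transcript start, on a log axis. Coding sequence of last exons stands above the other 4 lines at each distance, with overlapping intervals to inner coding exons and 3′ UTRs in the bin over 20 kb.

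In every distance bin, coding sequence of last exons held more sites per Mb than inner coding exons, 3′ UTRs, introns and intergenic DNA, but over 20 kb from a TSS their interval overlapped those of inner coding exons and 3′ UTRs. At 1 to 2 kb, coding sequence of last exons held 80.7 sites per Mb (65.3 to 98.7), against 30.4 (24.1 to 37.8) in inner coding exons, 18.4 (17.4 to 19.4) in introns and 15.3 (14.1 to 16.6) in intergenic DNA. At more than 20 kb the values were 18.7 (10.2 to 31.4), 15.2 (11.1 to 20.3), 8.04 (7.75 to 8.33) and 5.94 (5.76 to 6.12) per Mb in the same order. The 3′ UTRs changed least with distance, from 15.8 (11.96 to 20.5) per Mb at 1 to 2 kb to 11.2 (8.31 to 14.7) at more than 20 kb. Of the exonic sites, 28.6% were at 1 to 2 kb, against 13.7% of intronic and 6.27% of intergenic sites, and 11.2% were over 20 kb away, against 30.1% and 42.0%. The eligible DNA differed in the same way, with 11.02 of 65.8 Mb of exon DNA at 1 to 2 kb, against 73.4 of 980.0 Mb of intronic and 39.4 of 1199.7 Mb of intergenic DNA. Per Mb, exonic sites numbered 28.6 at 1 to 2 kb and 12.5 at more than 20 kb. The median distance of exonic sites to the nearest TSS was 3719 bp, against 9774 bp for intronic and 15318 bp for intergenic sites. For 845 of the 1102 sites (76.7%) the nearest TSS was not that of the transcript whose exon they occupied, and the median distance to that transcript's own start was 13044.5 bp.

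At the 1 kb limit of the rule, the nearest members were sites in Plxnc1 and Fgfr2, each 1003 bp from a TSS, and in Adcy5, 1008 bp away. The nearest exonic peaks left out were in Pde3b at 1000 bp, Stk35 at 998 bp and Grin3a at 997 bp. Densities of Plxnc1 were 1.27 and 0.707 in replicates 1 and 2, those of Fgfr2 1.08 and 0.570, and those of Adcy5 1.33 and 0.797. Just outside, Stk35 had 3.85 and 2.07, Pde3b 0.866 and 0.616, and Grin3a 0.556 and 0.454, so values on the 2 sides of the limit overlapped.

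Coding exons longer than 500 bp held more sites per length than shorter ones. Coding exons of up to 200 bp held 10.8 sites per Mb, those of 500 to 1000 bp 38.1, those of 1000 to 3000 bp 44.2 and those over 3000 bp 38.5. Genes whose transcript had a single exon held 40 coding sites, or 129 per Mb of coding DNA, and the first exon of several held 38, or 181 per Mb. In 3′ UTRs the first 250 bp past the stop codon held 18.0 sites per Mb, whereas DNA in the farthest bin past it held 11.5. The last 250 bp before the transcript end held 10.1 per Mb of 3′ UTR.

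Most exonic sites lay wholly within exon DNA, but inner coding exons were usually too short to contain them. Of all exonic sites, 761 (69.1%, 66.3 to 71.7%) had every base in exons, as had 354 of 381 3′ UTR sites (92.9%). A splice site lay inside 329 peaks (29.9%, 27.2 to 32.6%), in 192 of 259 inner coding sites (74.1%) against 17 of 381 3′ UTR sites (4.46%). The stop codon lay inside 157 peaks (14.2%, 12.3 to 16.4%), 88 of which were coding sites of last exons and 66 were 3′ UTR sites. A start codon lay inside 30 peaks and a transcript end inside 77.

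The strength of exonic sites was close to that of other sites outside promoters and below that of promoters. In replicate 1 the median density was 1.30 for exonic sites (quartiles 0.995 and 1.84), 1.20 for intronic, 1.17 for intergenic and 2.30 for promoter sites. In replicate 2 the medians were 1.02, 0.979, 0.927 and 1.62 in the same order. Within exons, 3′ UTR sites had medians of 1.35 and 1.10 in replicates 1 and 2, coding sites of last exons 1.33 and 0.979, and inner coding sites 1.21 and 0.927. The quartile ranges of all these classes overlapped. Peaks in the top 10% of the list by density were rare, with 22 exonic sites (2.00%, 1.32 to 3.00%) in replicate 1 and 32 (2.90%, 2.06 to 4.07%) in replicate 2, against 0.993% and 1.63% of intronic sites and 1.49% and 2.32% of intergenic sites. The median width was 304 bp (23 to 1027 bp), against 289 bp for intronic and 282 bp for intergenic sites, and 31 exonic sites were narrower than 150 bp.

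The libraries ranked the exonic sites alike. Across the 1102 sites the log2 densities of the replicates had a Pearson r of 0.88 and a Spearman rho of 0.83, a description of sites that share 2 libraries and their depths. The median log2 ratio of replicate 2 over replicate 1 was -0.37 (SD 0.35 over sites), and 157 sites were higher in replicate 2. It was -0.46 in coding sites of last exons, -0.40 in inner coding sites and -0.31 in 3′ UTR sites. In intronic sites it was -0.32, in intergenic sites -0.36 and in promoter sites -0.53.

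**Figure D2:**
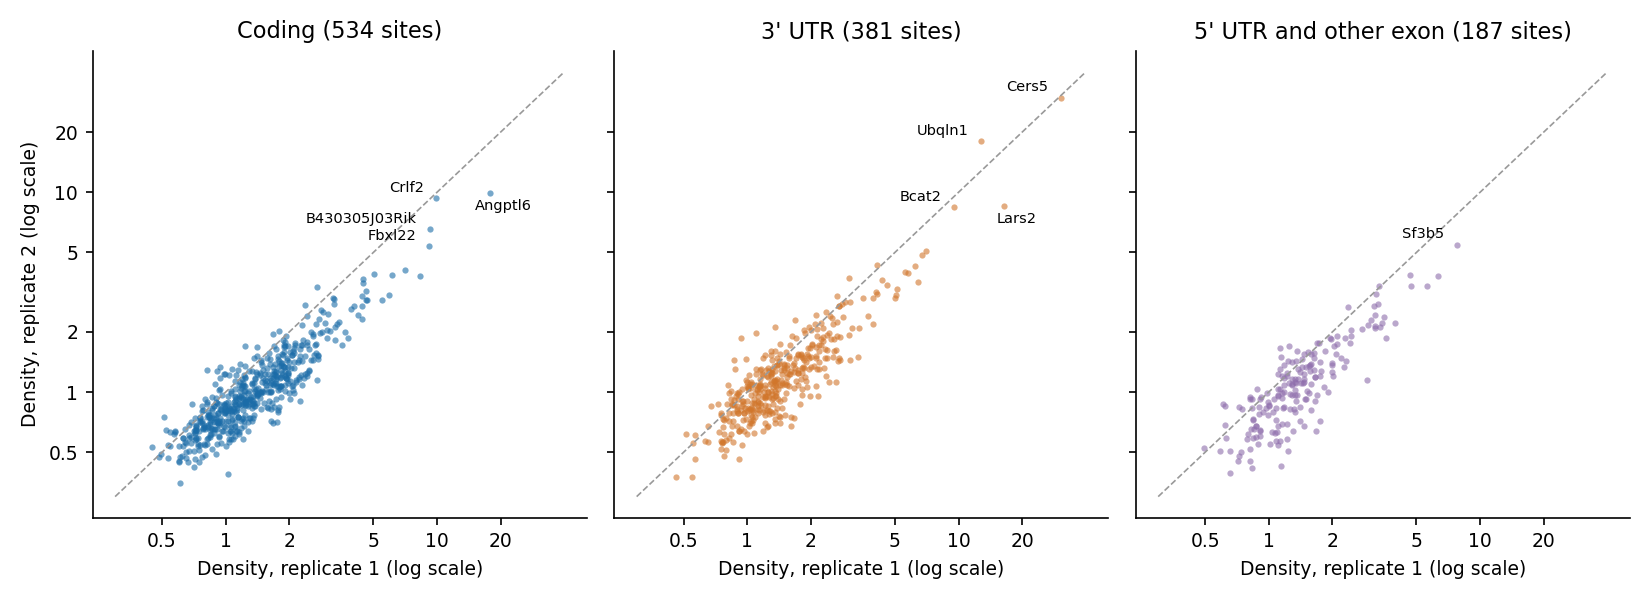
Cleavage density of each exonic site in replicate 1 (x) and replicate 2 (y), both on log axes, for coding, 3′ UTR, and 5′ UTR and other exon sites; the dashed line marks equal values. Most points lie below the line, and the Cers5 3′ UTR site is the strongest in both libraries, with 30.6 and 29.7.

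The strongest exonic site was in a 3′ UTR. This site of 391 bp in the last exon of Cers5, which encodes a ceramide synthase, lay 540 bases past the stop codon at chr15:99735674-99736064. Its densities of 30.6 in replicate 1 and 29.7 in replicate 2 were the highest of all exonic sites in both libraries, and it held 4 footprints found in both. The site lay 10251 bp from the nearest TSS. Next among 3′ UTR sites by rank in both lists was one in Ubqln1, the proteasome shuttle ubiquilin, at chr13:58177607-58177841. It had 12.8 in replicate 1 and 18.0 in replicate 2, and was thus among the 157 sites higher in replicate 2. A site in the 3′ UTR of Lars2, the mitochondrial leucyl-tRNA synthetase, had 16.5 and 8.504, but 59.8% of its 32-base words had a copy elsewhere in the genome. Reads from copies could be counted there, and this was not tested.

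The other 7 strongest 3′ UTR sites had densities of 5.58 to 9.48 in replicate 1 and 3.57 to 8.41 in replicate 2. They lay in Bcat2, the mitochondrial branched-chain aminotransferase (9.48 and 8.41), Dtx1, a ubiquitin ligase of the Notch pathway (7.04 and 5.06), and Sox12, a SoxC transcription factor (6.74 and 4.87). Sites in Lrrc24, a leucine-rich repeat gene, in a, the agouti gene that encodes a melanocortin receptor antagonist, in St3gal2, a sialyltransferase, and in Tsc22d4, a TSC22 family member, completed the group. The Sox12 site held 9 footprints found in both libraries, as many as any exonic site, and the midpoint of the Bcat2 site was 3 bases past the stop codon. None of the 10 lay within 1 kb of a RefSeq transcript start.

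Among coding sites the strongest was in exon 2 of 6 of Angptl6, a secreted angiopoietin-like factor, at chr9:20878098-20878517, with densities of 17.9 in replicate 1 and 9.92 in replicate 2. Its GC content was 69.0%, it held 7 footprints found in both libraries, and a RefSeq transcript start lay 246 bp away. A site in exon 2 of 8 of Crlf2, a subunit of the receptor for thymic stromal lymphopoietin, had 9.91 and 9.38 and 8 footprints at chr5:109557406-109557754. Here the nearest RefSeq start was 1413 bp away. Sites in the last exons of Fbxl22, an F-box gene, and Zfp771, a zinc finger gene, had 9.12 and 8.33 in replicate 1 and 5.39 and 3.80 in replicate 2. Both were rich in CpG, with observed over expected values of 1.25 and 1.29.

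The remaining strong coding sites were in B430305J03Rik (9.23 and 6.52, in replicates 1 and 2, with 9 footprints and a RefSeq start 657 bp away), 1700008O03Rik (7.05 and 4.06) and Trim14, an adaptor of antiviral signalling (6.13 and 3.85). Unc13a, which primes synaptic vesicles for release, had a coding site in exon 44 of 44, with 5.90 in replicate 1 and 3.07 in replicate 2. The site lay 42319 bp from the start of its own transcript but 81 bp from a RefSeq start. Slc1a6, a glutamate transporter of Purkinje cells, had 4.48 and 3.68 in exon 2 of 10, with a RefSeq start 99 bp away. Synpo2l, a cytoskeletal gene of striated muscle, had 5.04 and 3.91 in its last exon, at the CTCF match printed above. Of the 10 strongest coding sites, 4 lay within 1 kb of a RefSeq start.

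The strongest 5′ UTR site was in Sf3b5, a subunit of the SF3b splicing complex, with 7.79 in replicate 1 and 5.46 in replicate 2, and lay 32 bp from a RefSeq start. Next were B430305J03Rik (6.30 and 3.82), A930004D18Rik (5.59 and 3.39), Zfp503, a zinc finger repressor of the developing striatum (4.71 and 3.40), and Nup160, a nuclear pore subunit (3.98 and 2.22). Of these 5 sites, 4 lay within 1 kb of a RefSeq start. Over all exonic sites, 75 (6.81%, 5.46 to 8.45%) lay within 1 kb of a RefSeq start that was not among the GENCODE starts used, namely 46 coding (8.61%), 7 3′ UTR (1.84%), 16 5′ UTR (53.3%) and 6 other exon sites. The share was 5.47% for intronic and 7.73% for intergenic sites.

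Hotspots, the broader enriched regions of the deposited lists, came within 1 kb of a TSS at some exonic sites. A promoter peak was not required. The hotspot of replicate 1 that covered an exonic site reached within 1 kb of a TSS for 194 sites (17.6%, 15.5 to 19.96%), and that of replicate 2 for 195 (17.7%). The shares in replicate 1 were 26.5% in coding sites of last exons and 6.56% in 3′ UTR sites, against 6.37% in intronic and 2.67% in intergenic sites. These shares were not matched for distance, and 28.6% of exonic sites lay 1 to 2 kb from a TSS, against 13.7% of intronic and 6.27% of intergenic sites.

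Exonic sites had higher medians of GC and CpG content than other sites outside promoters, and the highest were in coding sites of last exons. The median GC content was 56.6% in exonic, 52.6% in intronic, 51.9% in intergenic and 64.3% in promoter sites. The ratio of observed to expected CpG was 0.40003, 0.259, 0.290 and 0.770 in the same order. In coding sites of last exons the medians were 62.3% and 0.692, in inner coding sites 57.4% and 0.451, and in 3′ UTR sites 55.1% and 0.280. Windows of 300 bp at exonic sites had a median GC of 56.3% and CpG ratio of 0.406, against 45% and 0.229 in such windows over all exon DNA of the rule.

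CpG-rich sites, with a GC content of at least 55% and a CpG ratio of at least 0.65, made up 5% of all shared sites outside promoters. They were 243 of the exonic sites (22.1%, 19.7 to 24.6%), against 3.15% of intronic (2.82 to 3.51%) and 4.93% of intergenic sites (4.52 to 5.38%). Coding sites of last exons were CpG-rich in 53.1% (47.2 to 58.9%), inner coding sites in 24.3% (19.5 to 29.9%) and 5′ UTR sites in 43.3% (27.4 to 60.8%). The 3′ UTR sites, at 4.72% (3.01 to 7.34%), were within the counting error of intergenic sites. At 1 to 2 kb from a TSS, 59.4% of coding sites were CpG-rich against 12.5% of intronic and 15.9% of intergenic sites, and at more than 20 kb 13.3% (6.91 to 24.2%) against 0.739% and 2.30%.

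Sites per Mb climbed with the CpG content of the exon DNA. Coding DNA with a CpG ratio below 0.2 held 4.85 sites per Mb, and that with 0.8 or more held 372. In 3′ UTRs the corresponding values were 7.89 and 106 per Mb. Coding DNA of 0.8 or more held 27.3% of the coding sites in 1.64% of the coding DNA.

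**Figure D3:**
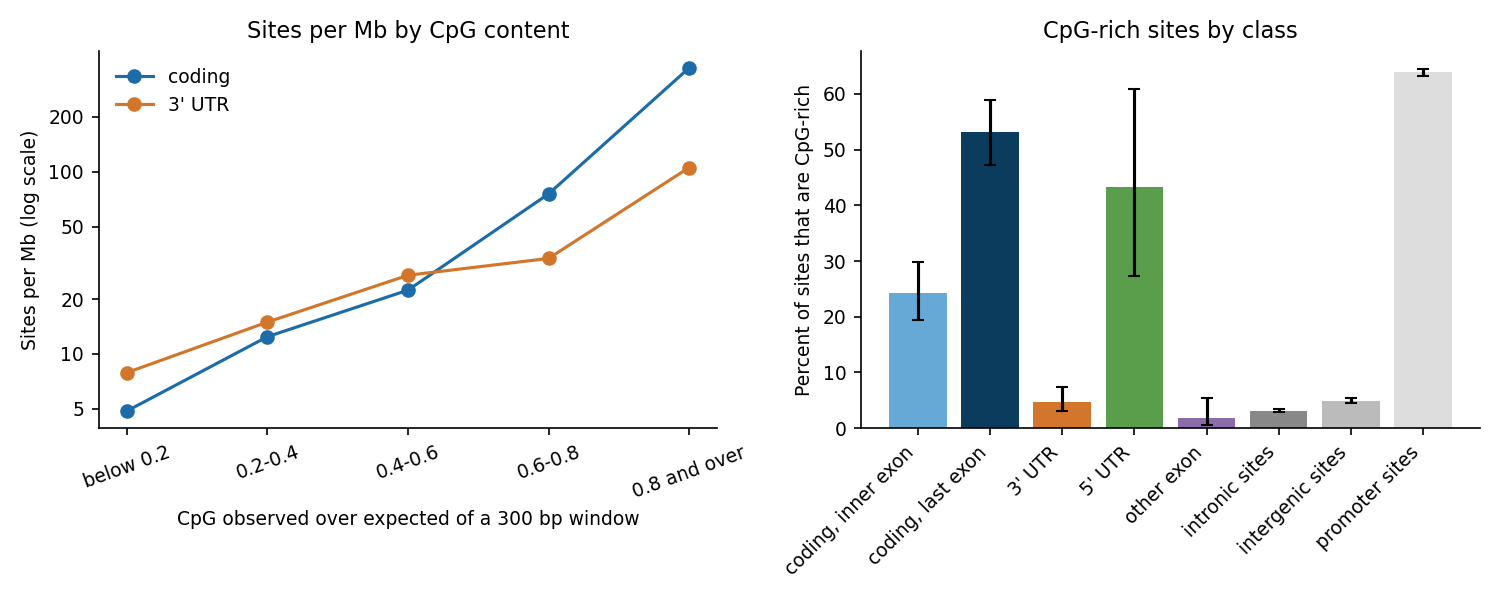
Left, coding and 3′ UTR sites per Mb (log axis) against the CpG ratio of 300 bp windows; right, percent of sites of each class that were CpG-rich, with 95% Wilson intervals. Both lines climb, from 4.85 to 372 for coding and from 7.89 to 106 for 3′ UTR DNA, and coding sites of last exons are the class outside promoters with the highest share, 53.1%, although its interval overlaps that of 5′ UTR sites.

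CpG-rich and other coding sites differed in place. Of the 209 CpG-rich coding sites 69.9% were in last exons, against 39.7% of the 325 other coding sites. Their hotspot of replicate 1 came within 1 kb of a TSS in 38.8% against 12.6%. The sites themselves were also nearer to a TSS, at a median of 2019 bp against 4506 bp. Their median densities were 1.42 in replicate 1 and 0.992 in replicate 2, against 1.17 and 0.920. Their median exon length was 1696 bp against 360 bp.

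Footprints were about as common in exonic sites as elsewhere. A footprint of replicate 1 that overlapped one of replicate 2 lay in 821 exonic sites (74.5%, 71.8 to 77.0%), against 76.2% of intronic and 75.9% of intergenic sites and 76% of all shared sites outside promoters. The classes differed: the share was 82.2% (77.99 to 85.7%) in 3′ UTR sites, 73.0% (67.3 to 78.02%) in inner coding sites and 66.5% (60.8 to 71.9%) in coding sites of last exons. No footprint in either library was listed in 43 exonic sites (3.90%, 2.91 to 5.21%), of which 32 were coding, against 1.88% of intronic (1.63 to 2.17%) and 1.70% of intergenic sites (1.46 to 1.98%). At 1 to 2 kb from a TSS the share with a footprint in both libraries was 66.7% (61.3 to 71.6%) in exonic sites against 75.1% (72.8 to 77.4%) in intronic sites, and at more than 20 kb 79.7% (71.7 to 85.8%) against 74.1% (72.5 to 75.6%).

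The most footprints found in both libraries were 9, in the B430305J03Rik coding site, the Sox12 3′ UTR site and an exon outside the annotated coding sequence and UTRs of Gria2, an AMPA receptor subunit. The Gria2 site had densities of 2.27 and 1.33 in replicates 1 and 2, below those of the other 2 sites. Crlf2 followed with 8, and Angptl6 and Synpo2l with 7 each.

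A CTCF match within 75 bp of the midpoint, on either strand, was found in 132 exonic sites (11.98%, 10.2 to 14.0%), against 9.64% of intronic (9.07 to 10.2%), 11.7% of intergenic (11.1 to 12.4%) and 2.71% of promoter sites. Over all shared sites outside promoters the share was 10.7%, and in windows of that length over the exon DNA of the rule 0.137%. The share was 14.96% (11.7 to 18.9%) in 3′ UTR sites, 11.97% (8.56 to 16.5%) in inner coding sites and 6.91% (4.47 to 10.5%) in coding sites of last exons. At more than 20 kb from a TSS it was 16.3% (10.8 to 23.8%) in exonic sites, 7.87% (6.95 to 8.89%) in intronic and 9.24% (8.39 to 10.2%) in intergenic sites.

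Most of these matches lay in a footprint. Of 134 CTCF matches in exonic sites, 116 (86.6%, 79.8 to 91.3%) overlapped a footprint of both libraries by at least 5 bp. Of these, 90 lay wholly inside it. Footprints covered 12.9% of the bases searched, which is a share of single bases and not the same measure as an overlap of 5 bp. The shares of matches with such an overlap were 90.2% in coding and 86.0% in 3′ UTR sites, against 86.7% in intronic and 85.2% in intergenic sites. Exonic sites with a match had median densities of 1.44 and 1.09 in replicates 1 and 2, those without a match 1.28 and 1.02. A footprint in both libraries was found in 93.2% of sites with a match and 72.0% of those without. The match was on the strand of the gene in 60 of 132 sites (45.5%, 37.2 to 54.0%), an interval that includes an even division.

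The 6 sites printed above for a match inside such a footprint had densities of 3.08 to 5.59 in replicate 1 and 2.44 to 3.91 in replicate 2. The coding site of Def6, a guanine nucleotide exchange factor of lymphocytes, had 4.21 and 2.44, and 4 footprints. The 3′ UTR site of Skap2, a Src kinase-associated adaptor, had 4.599 and 3.45 and lay 13914 bp from a TSS. Those of Dand5, a Nodal antagonist, and Slc43a2, an amino acid transporter, had 4.33 and 3.08 in replicate 1 and 3.64 and 2.83 in replicate 2.

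Other patterns were compared between coding and 3′ UTR sites, whose intervals overlapped for both E-boxes. The E-box CAGCTG, bound by basic helix-loop-helix factors, was found in 24.0% of coding sites (20.5 to 27.8%) and 17.6% of 3′ UTR sites (14.1 to 21.7%), against 19.7% of intronic (18.97 to 20.5%) and 18.3% of intergenic sites (17.5 to 19.04%). The SP/KLF pattern GGGCGG, a GC box, was found in 18.4% of coding sites (15.3 to 21.9%) and 11.5% of 3′ UTR sites (8.72 to 15.1%), against 9.92% of intronic (9.35 to 10.5%) and 10.4% of intergenic sites (9.85 to 11.1%). The proneural E-box CAGATG was found in 16.7% of coding and 19.7% of 3′ UTR sites, against 20.5% and 19.8%. The background differed too: in windows over coding and 3′ UTR DNA, CAGCTG was found in 12.1% and 6.96%, GGGCGG in 3.93% and 2.08%, and CAGATG in 14.0% and 11.3%.

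The nuclear factor I short pattern TTGGCA was found in 11.98% of coding sites (9.50 to 15.015%) and 17.8% of 3′ UTR sites (14.3 to 22.0%), against 18.5% of intronic (17.8 to 19.3%) and 17.4% of intergenic sites (16.6 to 18.2%). The AP-1 pattern TGANTCA, of Fos and Jun dimers, was found in 2.43% of coding sites (1.43 to 4.12%) and 4.72% of 3′ UTR sites (3.01 to 7.34%), against 5.60% and 5.90%. The TEAD pattern GGAATG was found in 4.87% of coding sites (3.34 to 7.04%) and 9.97% of 3′ UTR sites (7.35 to 13.4%), against 8.53% and 8.45%. Of these 3 patterns only TEAD had intervals in coding and 3′ UTR sites that did not overlap. The homeobox pattern TAATTA was found in 5 of all 1102 exonic sites (0.454%, 0.194 to 1.06%), against 2.27% of intronic and 2.35% of intergenic sites and 3.94% of exon DNA windows. In windows over coding and 3′ UTR DNA the nuclear factor I short pattern was found in 9.74% and 8.10%, AP-1 in 3.47% and 4.26%, and TEAD in 7.84% and 8.13%. The SOX pattern was found in 11 coding sites (2.06%, 1.154 to 3.65%) and in 0 of 381 3′ UTR sites, which allows a share of up to 0.998%, against 1.58% of intronic and 1.80% of intergenic sites.

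The ETS pattern CCGGAAG was found in 2.81% of exonic sites (1.99 to 3.97%), against 1.19% of intronic and 1.70% of intergenic sites and 1.02% of exon DNA windows. The E-box CACGTG was found in 5.26% of exonic sites (4.09 to 6.74%), against 4.16% and 4.197%. Its 62 matches in exonic sites overlapped a footprint of both libraries in 3 cases (4.84%, 1.66 to 13.3%), against 18.6% of matches in intronic (15.2 to 22.6%) and 15.7% in intergenic sites (12.5 to 19.4%). The footprint of Crlf2 printed above was chosen for the strength of its site and held this pattern. The SP/KLF pattern was in such a footprint in 28.1% of its matches (22.6 to 34.3%), against 29.0% and 29.7%. The patterns for CREB, MEF2, RFX, EGR, NRF1, SOX, POU and the full nuclear factor I site were each found in 1.18% of exonic sites or fewer. Patterns were searched on both strands and separately, so matches can overlap, as the nuclear factor I short pattern does with the full one.

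**Figure D4:**
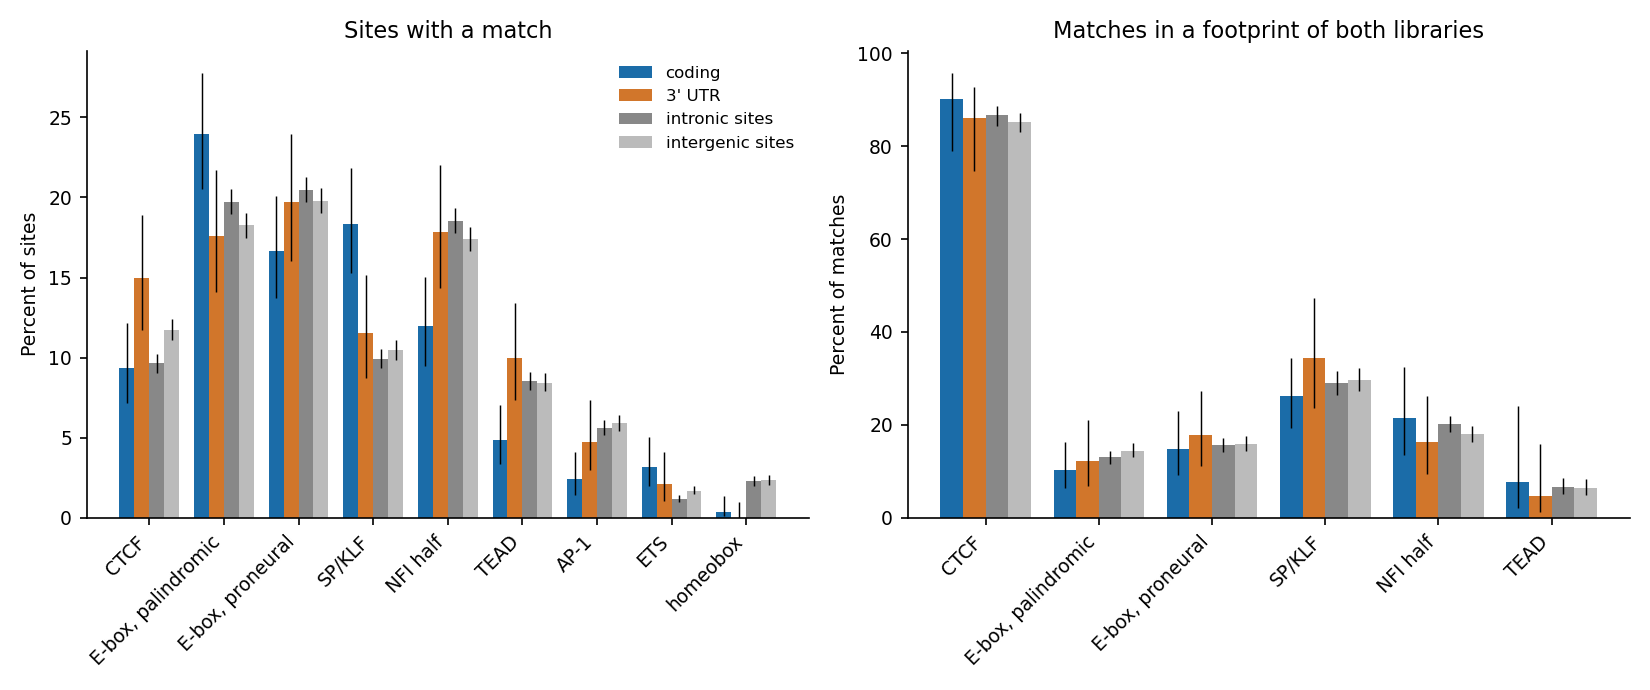
Left, percent of coding, 3′ UTR, intronic and intergenic sites with a match within 75 bp of the midpoint; right, percent of the matches that overlap a footprint of both libraries by at least 5 bp, both with 95% Wilson intervals. CTCF stands apart on the right, with 90.2% in coding and 86.0% in 3′ UTR sites, and SP/KLF matches are more frequent in coding sites (18.4%) than in the other classes drawn.

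How exonic peaks compared with other peaks in being found again depended on which library was searched first. Of 1441 exonic peaks in replicate 1, 1102 (76.5%, 74.2 to 78.6%) overlapped a replicate 2 peak, against 80.4% of intronic and 81.0% of intergenic peaks and 80.5% of all autosomal peaks outside promoters. Of 1547 exonic peaks in replicate 2, 1092 (70.6%, 68.3 to 72.8%) overlapped a replicate 1 peak, against 67.6% of intronic and 71.6% of intergenic peaks. The order of the classes also turned among the weakest peaks. In the lowest of 4 equal parts of the list by density, 53.5% of exonic peaks of replicate 1 were found again against 61.7% of intronic peaks, and 54.5% of those of replicate 2 against 43.0%. The 3′ UTR peaks were found again in 81.9% from replicate 1 and 68.2% from replicate 2, and coding peaks in 70.8% and 71.6%.

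The peak lists that the authors made from filtered alignments held most of the same sites. In the smaller such list, 72.1% of exonic sites were overlapped in replicate 1 and 72.8% in replicate 2, against 74.2% and 79.9% of intronic and 79.5% and 83.1% of intergenic sites. In the larger one, 95.8% of exonic sites were overlapped in replicate 1 and 96.2% in replicate 2, against 97.4% and 98.1% of intronic sites. In this larger list the 50 strongest exonic sites were all overlapped in both libraries. No base with a false discovery rate (FDR) under 0.05 was listed in 34 exonic sites (3.09%, 2.22 to 4.28%) in replicate 1 and 29 (2.63%, 1.84 to 3.75%) in replicate 2, against 1.53% and 0.942% of intronic sites. In 10 sites none was listed in either library.

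The 10 sites that follow were named for the largest difference in rank between the libraries. Higher in replicate 2 were sites in Dclre1b, a DNA repair nuclease (0.931 and 1.87 in replicates 1 and 2), Plekhf1 (0.866 and 1.45), Cit, the citron kinase of cell division (0.813 and 1.29), Wrb, a tail-anchored protein insertion factor (0.877 and 1.31), and Iqce (1.10 and 1.98). The Cit site was 24 bp wide, and 4 of the 5 lay in 3′ UTRs. Higher in replicate 1 were sites in Col6a4, a collagen (1.68 and 0.642), Grip1, a scaffold of AMPA receptors (1.75 and 0.707), Csgalnact1, which starts chondroitin sulfate chains (1.23 and 0.506), Fignl1 (1.14 and 0.428) and Eri1, an exonuclease of histone mRNA (1.68 and 0.700). With 1 library per replicate these differences have no further check.

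The 1102 sites lay in 948 genes, of which 826 had 1 site, 97 had 2 and 25 had 3 or more. Of the host genes 707 (74.6%, 71.7 to 77.2%) had a promoter peak, against 59.6% (58.9 to 60.3%) of protein-coding genes with eligible exon DNA and no site. Host genes had more such DNA, with a median of 4000 bp against 2400 bp. Host genes had the higher share in each of 5 bins of that length, with 55.7% (43.3 to 67.5%) against 40.4% (38.8 to 41.9%) up to 1000 bp, and 57.6% (49.5 to 65.4%) against 49.1% (47.6 to 50.7%) in the next bin. The shares were 74.7% (69.4 to 79.4%) against 62.9% (61.6 to 64.2%) in the bin that ends at 4000 bp and 79.4% (74.4 to 83.6%) against 77.6% (76.2 to 78.9%) in the one that ends at 8000 bp. Over 8000 bp they were 87.7% (81.8 to 91.9%) against 83.7% (81.5 to 85.6%). The intervals did not overlap in the bins that end at 1000 and 4000 bp, and overlapped in the others.

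Pcdh17, a non-clustered protocadherin of synaptic adhesion, had 5 sites, 4 in the 5′ UTR and 1 in coding sequence of its first exon, with densities of 0.995 to 1.47 in replicate 1 and 0.771 to 1.17 in replicate 2. The 4 sites in the 5′ UTR lay within 200 bp of a RefSeq start. Irs1, the insulin receptor substrate, had 5 coding sites along exon 1, with 0.545 to 1.70 in replicate 1 and 0.447 to 1.27 in replicate 2. The site nearest to the start was the strongest, and the other 4 were 2 pairs of abutting peaks that each shared 1 peak of replicate 2.

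Sox4, a SoxC transcription factor of neuronal differentiation, has a single exon and had 3 coding sites and 1 in its 3′ UTR. The coding sites had 0.984 to 1.36 in replicate 1 and 0.616 to 0.882 in replicate 2, and the 3′ UTR site had 1.80 and 1.16, higher than all 3 in both libraries. Fzd8, a Wnt receptor also encoded by 1 exon, had 4 coding sites with 0.909 to 2.31 in replicate 1 and 0.551 to 1.08 in replicate 2. Tmem200c, a transmembrane gene, had 4 coding sites in its last exon, all weak, with 0.717 to 0.931 and 0.473 to 0.648.

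**Figure D5:**
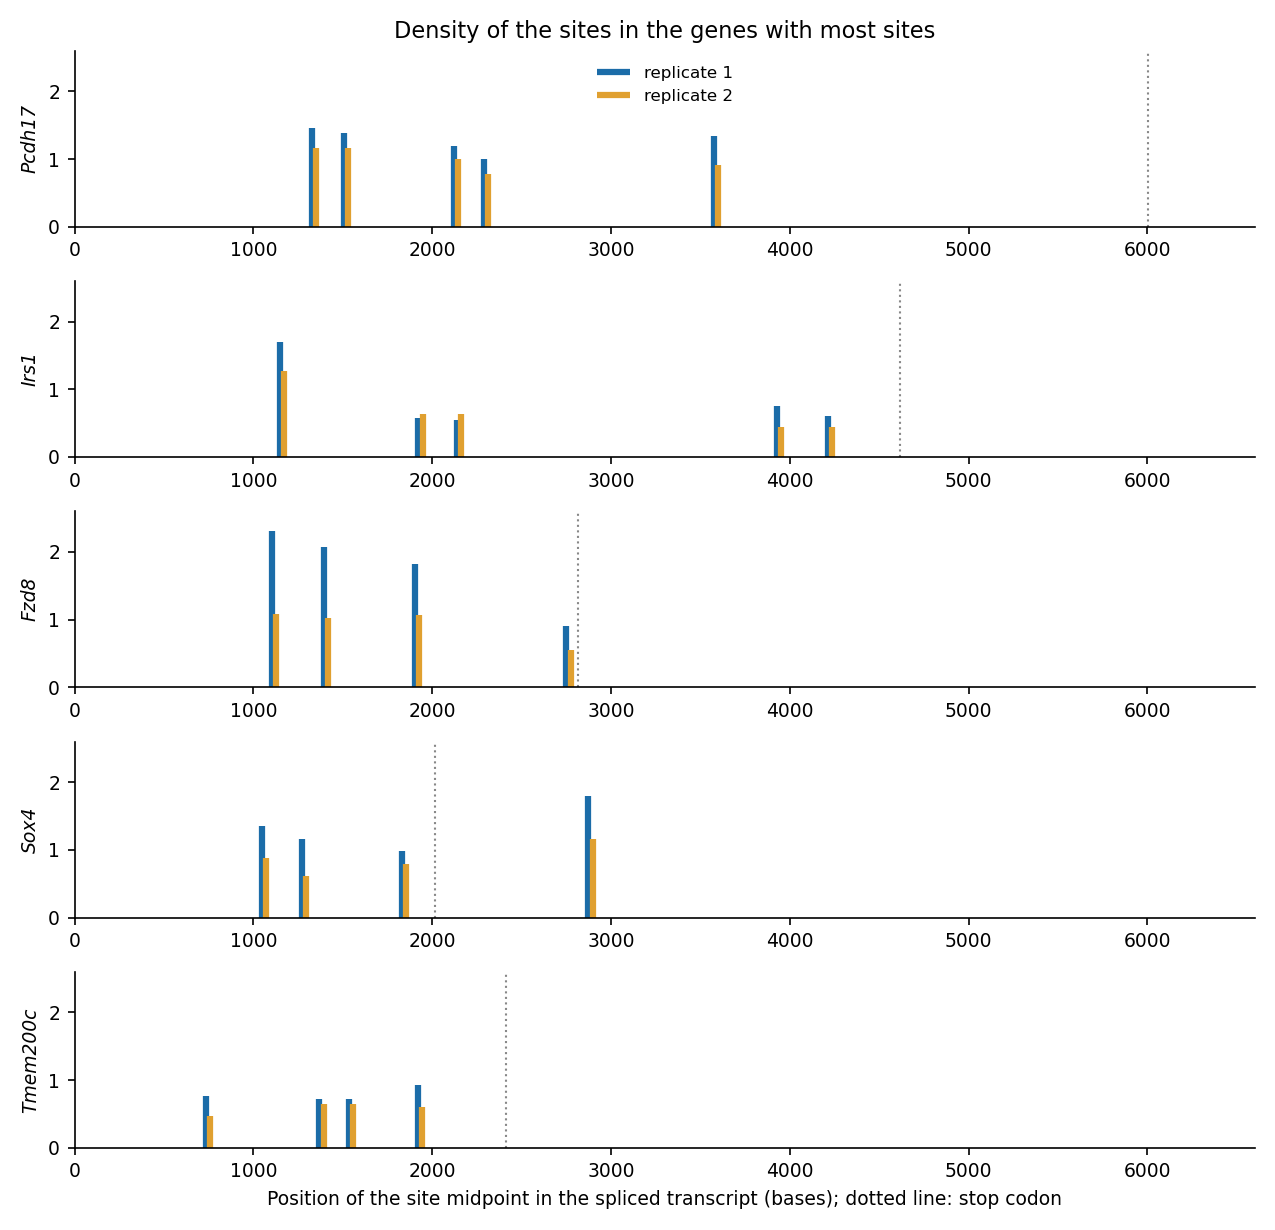
Density of each exonic site in the 5 genes with most sites, at the position of its midpoint in the spliced transcript, with 1 bar per library and a dotted line at the stop codon. Sites of Irs1 and Fzd8 nearest to the transcript start are the highest of their gene in replicate 1, and 1 of the 4 Sox4 sites lies past the stop codon.

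Genes with 3 sites that the naming rule took were B430305J03Rik, Dpf1, Ankrd11, H13 and Dtx1. Dpf1, a neuronal subunit of the BAF chromatin remodelling complex, had 3.33, 1.97 and 1.02 in replicate 1 and 3.40, 2.11 and 1.21 in replicate 2, so each was slightly higher in replicate 2. H13, the signal peptide peptidase, had its 3 sites in the 3′ UTR, with 1.55 to 2.74 in replicate 1 and 1.32 to 1.45 in replicate 2. Ankrd11, a chromatin regulator, had 1.54 to 2.10 in replicate 1 and at most 1.90 in replicate 2. In all, 56 of the 1102 sites shared a replicate 2 peak with another exonic site, and 208 lay within 1 kb of another exonic site. Counts per Mb take each such site separately.

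The gene lists were described by how many members had an exonic site, beside 4.56% (4.28 to 4.85%) of all 20807 autosomal protein-coding genes. The share was above 4.56% in all 11 lists, that of liver, blood and muscle genes included (11.1%). The interval included 4.56% for that list (3.10 to 32.8%), for cytoskeletal genes (2.14 to 24.1%) and for collagen and matrix genes (2.79 to 30.1%). No list was tested, and lists differ in exon length, so sites per Mb of eligible exon DNA are given beside the counts, against 16.8 over all genes. Lists also differ in promoter peaks, which were not matched. Such a peak was found in 12190 of all 20807 genes, but in 22 of 22 immediate early genes and 1 of 18 liver, blood and muscle genes. Among immediate early genes, the first to be transcribed after neuronal activity, 6 of 22 had a site (7 sites, 115 per Mb). They included Jun, with 2.64 in replicate 1 and 1.13 in replicate 2, and Ier2 with 2.03 and 1.75, both in the 3′ UTR. Junb had 1.80 and 1.06 in coding sequence. Fosb had 1.70 and 1.76 in an exon outside the annotated coding sequence and UTRs, and 1.28 and 0.804 in its 3′ UTR.

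Among cortical and neuronal transcription factors 4 of 30 had a site, but with 11 sites (54.0 per Mb), 8 of them coding. All 4 genes, Sox4, Sox11, Pou3f2 and Pou3f3, have a single exon. Sox11, the partner of Sox4 in the SoxC group, had 1.41 and 0.979 in coding sequence and 1.40 to 1.49 in replicate 1 in its 3′ UTR, where both sites shared a replicate 2 peak of 0.920. Pou3f2 and Pou3f3, POU factors of upper-layer neurons, had 2 coding sites each, with 1.06 to 1.14 in replicate 1 and 0.752 to 0.992 in replicate 2.

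Among ion channels and receptors 11 of 32 had a site (13 sites, 43.3 per Mb). Kcna2, a potassium channel of axons, had 2.13 and 1.90 in its 3′ UTR, 8348 bases past the stop codon of a long last exon. Gabbr2, a GABA-B receptor subunit, had 1.70 in replicate 1 and 1.70 in replicate 2 in coding exon 14 of 19. Kcnq3, a channel of the M current, had 1.55 and 1.35 in an exon outside the annotated coding sequence and UTRs. Among synaptic scaffolds and active zone genes 5 of 25 had a site (26.0 per Mb), all coding. Besides Unc13a, they included the postsynaptic scaffolds Shank3 and Dlgap3, which had 1.95 and 1.81 in replicate 1 and 1.48 and 1.18 in replicate 2.

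Chromatin regulators had a site in 7 of 29 genes (27.98 per Mb), among them the histone methyltransferase subunit Setd1b (3.13 and 2.71, with a CTCF match), the demethylase Kdm6b (2.39 and 2.66, in its 5′ UTR), the remodeller Chd7 (1.55 and 1.09) and the DNA demethylation enzyme Tet3 (1.16 and 1.20). Insulin, mTOR and Notch genes had a site in 4 of 20 (10 sites, 104 per Mb). Of these sites 5 were those of Irs1, with its abutting peaks. Notch1 had 3 sites, all in exon DNA outside the annotated coding sequence and UTRs. They had 3.28, 1.58 and 1.35 in replicate 1 and 2.76, 1.10 and 1.11 in replicate 2. Notch3 and the ligand Jag1 had coding sites of 1.38 and 0.877 in replicate 1 and 1.17 and 0.849 in replicate 2.

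Glial lineage genes had a site in 5 of 21 (55.8 per Mb). Sox8 had 1.56 and 1.32, Olig1 1.47 and 0.836, Gfap, the astrocyte filament gene, 1.35 and 0.869 with a CTCF match, and Pdgfra, the receptor of oligodendrocyte precursors, 0.995 and 0.810. Adhesion genes outside the clusters had a site in 4 of 23 (10 sites, 53.4 per Mb), with Bcan, an extracellular proteoglycan (1.18 and 1.24), Pcdh10 and Fat2 besides Pcdh17. Of these 10 sites 5 were those of Pcdh17, with its 4 in the 5′ UTR close to a RefSeq start. Cytoskeletal genes had a site in 2 of 26 (7.38 per Mb), Dst (1.22 and 1.25) and Ank3 (1.26 and 0.823), neither of them coding. Collagen and matrix genes had a site in 2 of 20 (14.3 per Mb), Col5a1 (1.497 and 1.30) and Col4a2 (0.877 and 0.856).

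Of 18 genes of liver, blood and muscle, 1 had a promoter peak and 2 had an exonic site (13.02 per Mb). Apoa1, an apolipoprotein, had 3.24 in replicate 1 and 2.77 in replicate 2 in its last coding exon, and Klf1, an erythroid factor, 3.44 and 2.26. Sites are assigned here to the gene whose exon they lie in, and which gene they act on was not tested.

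Families named by symbol were chosen after their values were seen. Of 18 autosomal Sox genes 5 had a site, with 7 coding and 4 3′ UTR sites, and of 10 frizzled genes 3 had a site, all 6 sites coding. Zinc finger genes with a Zfp symbol had a site in 15 of 388 (3.87%, 2.36 to 6.28%) and solute carriers in 26 of 372 (6.99%, 4.81 to 10.0%). Olfactory receptor genes had a site in 0 of 1127, which allows a share of up to 0.340%.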

How the data were processed

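DNase-seq of frontal cortex was deposited as peak lists, hotspots, footprints and per-base tracks, made per library and on mm10. Per the lists of source files that the authors deposited, the main and looser peak lists and the hotspots came from the sequencing reads, and the other peak lists, the footprints and the per-base false discovery rates from filtered alignments. The aligner and callers are not stated in the sources used. Peak values as deposited are a signal, the authors' cleavage density, whole multiples of a step per library within a tolerance of 0.05. These steps gave replicate 2 a relative depth of 1.65, and absolute depth is unknown. The deposited hotspots carry a −log10 FDR, per the file headers, and every line of the deposited footprint lists carries 0.01 as a p-value threshold. The per-base track deposited by the authors lists only FDR values under 0.05. A pair of footprint lists of replicate 2 without a counterpart in replicate 1 was not used.

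Replicate 1 peaks sharing 1 bp or more with a peak of replicate 2 were classed by midpoint with GENCODE vM21. The eligible exon DNA under the same rule gave sites per Mb with exact Poisson intervals, and shares have 95% Wilson intervals. These cover counting error only, sites are not independent, and with 1 group no test between conditions was made. Motifs were searched on both strands within 75 bp of the midpoint and compared with windows of that length on a 200 bp grid over the exon DNA. Copied 32-base words were counted over the genome. The scripts were tested on simulated data with planted answers, with 1351 of 1351 items right.

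The members, the 11 gene lists and the alternatives were chosen with earlier results of these data known. The sites named were the 10 coding, 10 3′ UTR, 5 5′ UTR and 5 last-exon coding sites ranked highest by density in both lists, and the 10 genes with the most sites. Also named were the 6 sites with the most footprints, the 5 with the largest rank difference in each direction, up to 4 members with a site per gene list, the 6 highest sites with a CTCF match inside a footprint, and the 3 nearest to the 1 kb limit on each side. Alternatives changed the TSS distance, overlap, peak list, base FDR, transcript set, exon share, motif window, footprint overlap and replicate. Python 3.11.15, numpy 2.4.6, pandas 2.3.3, scipy 1.17.1 and matplotlib 3.10.9 were used. Some named genes are not reported here.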

Additional observations from a re-analysis of the deposited data

How the results depend on the processing

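Of 166 alternative values, 122 stayed within the limits set around the value reported and 44 moved beyond them. The limits were 1.5 times either way for the number of sites and the 95% interval for shares and medians. The number of exonic sites was 696 with a TSS distance of 2500 bp, 1693 with the looser peak lists and 519 with a base FDR of 0.0001. Coding sites were 45.3% at 2500 bp, 51.5% with the looser lists, 56.5% with protein-coding transcripts alone and 45.5% when at least 50% of bases had to be exonic. The 3′ UTR share was 27.7% at 500 bp, 43.0% at 2500 bp and 40.3% with protein-coding transcripts alone, and the 5′ UTR share 6.53% at 500 bp, 1.01% at 2500 bp and 1.36% with RefSeq starts added. Last exons held 52.6% at 500 bp, 64.7% at 2500 bp and 70.1% with protein-coding transcripts alone. The exonic share of sites outside promoters was 6.65% at 500 bp, 3.96% at 2500 bp, 5.80% with the looser lists, 4.69% with the stricter FDR and 4.59% with protein-coding transcripts alone. Median GC was 58.4% at 500 bp, 55.4% at 2500 bp, 56.0% with 50% reciprocal overlap, 57.4% with protein-coding transcripts alone and 58.3% when counted within 75 bp of the midpoint. Median density was 1.08 in replicate 1 and 0.862 in replicate 2 with the looser lists, and 1.74 and 1.29 with the stricter FDR. The share with a footprint in both libraries was 68.2% at 500 bp, 78.4% at 2500 bp, 78.03% with 50% reciprocal overlap, 57.5% with the looser lists, 89.0% with the stricter FDR and 64.7% when footprints had to cover 50% of each other, and the CTCF share was 9.57% at 500 bp. The cause was not tested.

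With either replicate alone there were 1441 to 1547 sites, of which 47.4 to 52.3% were coding, 32.3 to 36.6% in 3′ UTRs, 2.33 to 2.57% in 5′ UTRs and 59.86 to 60.03% in last exons. They made up 5.22 to 5.63% of sites outside promoters, with a median GC of 55.7 to 56.7% and a CTCF match in 9.63 to 10.8%. A footprint found in both libraries, still required here although the peaks came from 1 library, lay in 56.1 to 62.7%. Median density was 1.17 in replicate 1 alone and 0.907 in replicate 2 alone. RefSeq starts, copied words and a minimum width were added after seeing the data. No paired analysis was possible because the samples form 1 group. With 2 libraries of unknown absolute depth, a site missing from a list may have been missed for lack of reads.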
